A study of Malus domestica with 12 samples.

Results

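Peel of Granny Smith apples was taken at harvest from fruit batches that later scalded heavily (high scald) or less (low scald). Across 6 two-colour arrays of it, 55 transcripts gave more signal in high scald than in low scald peel on every array. Their mean difference was 1 or more on the log2 scale (at least 2-fold). They are 55 of the 66935 sense probes of the array (133709 probes when those of the antisense strand are counted too). Before the transcripts that the study tabulates by name, and 3 further probes, were set aside, 58 sense probes met this condition, or 0.0867% of the sense probes (2.38% were above 0 on all 6 arrays at any size), while 218 met the mirrored condition, lower on all 6 arrays with a mean of -1 or less (0.326%). The 55 transcripts were selected on the differences between high and low scald channels described below. The sign of these values and the lower limit of their mean were thus fixed by the choice. How the comparisons rank and spread among the 55 depends on the choice too, and no test is given on these values.

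Superficial scald is a browning disorder of the apple skin that appears during or after cold storage, as the outer cell layers under the cuticle die. It is a chilling injury, and it has long been linked to the oxidation in the peel of alpha-farnesene, a volatile terpene of the fruit surface. The fruit looks sound at harvest, which is when the peel of this study was taken, before any symptom.

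The samples were peel of unmodified Granny Smith fruit at early physiological maturity, each pooled from 20 fruit, and none was treated. Low scald peel came from the 2014 harvest of plots 24 and 36 (samples 2014-P24 and 2014-P36). High scald peel came from the 2015 harvest of plots 24 and 31 (2015-P24 and 2015-P31) and from the 2017 harvest of plot 31b (2017-P31b). The sample labels name that plot 31b, whereas the methods of the study name another orchard for it. The study's sampling text also gives plot 31 for 2014 and plot 36 for 2015, the reverse of the labels and its comparison list. Which names are right was not settled here, and those of the labels were used. The comparison called C1 held 2015-P24 and its low scald partner 2014-P24. That called C2 held 2015-P31 with 2014-P36 as partner, and that called C3 held 2017-P31b, again with 2014-P24. Each was run on a pair of arrays with the dyes exchanged (array a with the low scald peel in the Cy3 dye, array b with it in Cy5). All low scald peel came from 1 harvest year and all high scald peel from the others, so harvest year and scald cannot be told apart. The arrays of C1 and C3 thus have 2014-P24 in common and lay on 1 slide, and those of C2 lay on another. The arrays of a pair are technical repeats of the same pooled peel, which leaves 3 comparisons and 5 pools as the replication. The labels number the 2014-P24 channels of C1 and C3 separately, and the design text counts 6 samples, so these may be 2 preparations of that peel.

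The share of probes well above background (signal over local background by more than 2.6 times its pixel spread) was 21.7% to 30.3% in the 8 channels of the slide of C1 and C3. On the slide of C2 it was 29.6% and 29.7% in Cy3 but 10.9% (2015-P31) and 13.2% (2014-P36) in Cy5. Of the 55 transcripts, 36 were well above background in all 12 channels and 47 in all 6 high scald channels, against 18.9% of all sense probes for the latter (of these, 5.35% were above 0 on all 6 arrays). The other 19 fell short in some low scald channel but none in every one, and 19 of the 55 did so in the Cy5 channel of 2014-P36. For the count over all 12 channels, no share over all sense probes is given here. No spot of the 55 was saturated, and 2 transcripts had a spot with an outlier flag.

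The 55 are known here only by the transcript identifiers of the array, which was designed on predicted apple genes: 51 come from the first version of the design, of 59513 sense probes, and 4 from the 7422 probes added in the second. The study lists annotated transcripts in a supplement, of which only a part was used here, and that part and the reference table used here named 0 of the 55. No probe sequence was used either, so no role is given for any of them, the peel could not be checked by marker genes, and no count over pathways was made. The lists of pathway and cell type names drawn up for that purpose were not used for the same reason.

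The mean difference over the 6 arrays had a median of 1.25 (log2) over the 55 transcripts, with a range of 1.00 to 2.58. Only 3 reached 2 and only 6 reached 1.5, whereas 23 lay below 1.2. Over all sense probes the median of the same difference was -0.0022, with the middle 50% between -0.05 and 0.05. The plot of the 6 differences of each transcript shows how far they spread around that mean.

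**Figure D1:**
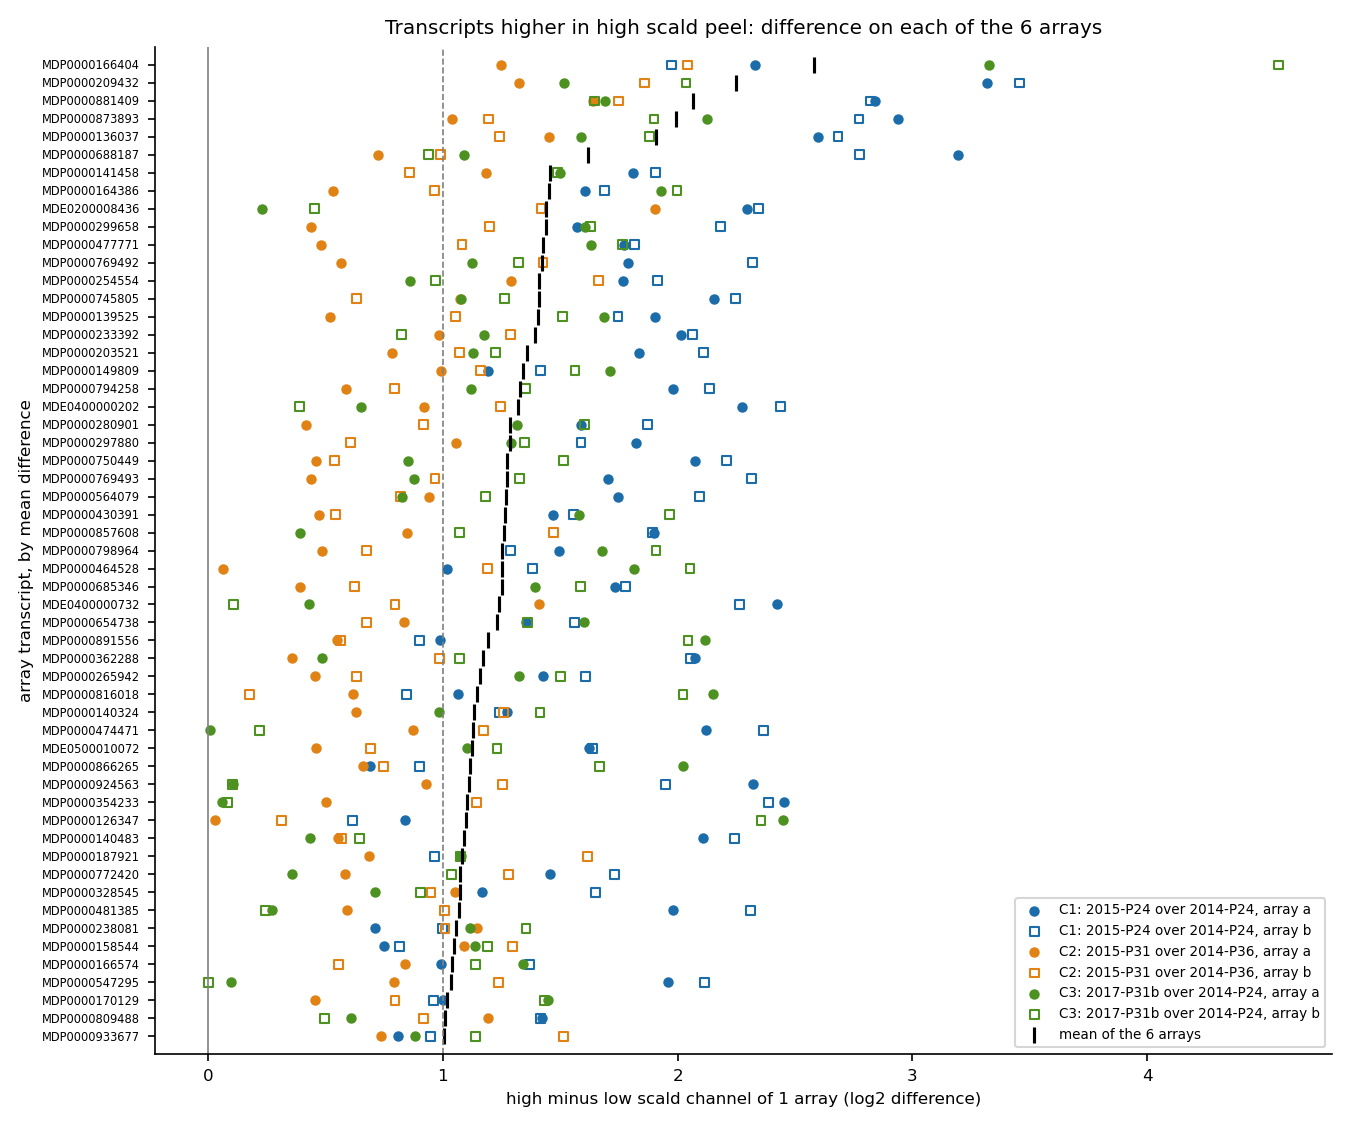
High minus low scald difference (log2, x axis) of the 55 transcripts (y axis, ordered by mean) on each of the 6 arrays, coloured by comparison, filled circles for array a and open squares for array b, with a black bar at the mean. The means run from 2.58 to 1.00 (dashed line at 1), the C1 points lie farthest right for most transcripts, and a few C3 points lie next to 0.

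MDP0000166404 (probe AryANE_v1_00010434) stood first. Its difference was 2.33 and 1.97 on the 2 arrays of C1, 1.25 and 2.04 on those of C2, and 3.33 and 4.56 on those of C3 (log2, array a before array b). To place the 5 peel samples on 1 scale, the 12 channels were also quantile-normalised, and the level of MDP0000166404 was then 8.87 in 2014-P24 and 9.14 in 2014-P36 against 11.10 in 2015-P24, 11.02 in 2015-P31 and 12.46 in 2017-P31b (log2, mean of the channels of each sample). The groups did not overlap, and 2017-P31b stood well above both 2015 samples. The mean of 2.58 ± 1.21 (SD, n = 3 comparisons) is a 5.98-fold difference, and 15.4-fold in C3 alone. It carried an outlier flag in 3 of its 12 channels. With those spots left out its mean was 2.20, just under the 2.25 of the transcript that followed it, and without C3 it was 1.90 against 2.49, so its first place rested on the flagged spots and on C3.

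MDP0000209432 followed with 2.25 ± 0.99 (log2, SD, n = 3 comparisons), or 4.76-fold. Here C1 was the largest, with 3.32 and 3.46 on its arrays, against 1.32 and 1.86 in C2 and 1.52 and 2.04 in C3. Its quantile-normalised level was 6.68 in 2014-P24 and 7.31 in 2014-P36, close to the dim end of the scale, and 9.74 in 2015-P24, 9.48 in 2015-P31 and 8.16 in 2017-P31b. All 3 high scald samples were higher, and the 2015 samples clearly more so than 2017-P31b, the reverse of MDP0000166404.

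MDP0000881409 differed by 2.83, 1.69 and 1.67 in C1, C2 and C3 (log2, mean of 2 arrays), with little between the paired arrays. Its quantile-normalised levels were 8.58 and 8.03 in 2014-P24 and 2014-P36 against 11.47, 10.15 and 9.95 in 2015-P24, 2015-P31 and 2017-P31b. MDP0000873893 was a dim transcript, at 6.74 and 7.41 in the low scald samples and 9.13, 8.99 and 8.56 in the high scald ones, with a mean difference of 2.00 ± 0.87 (SD, n = 3 comparisons). MDP0000136037 was brighter, at 8.91 and 8.79 against 11.53, 10.40 and 10.45 in the same order, with a mean difference of 1.91 ± 0.66. These 5 transcripts were the ones that differed by 1 or more on all 6 arrays.

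From the sixth transcript on the means fell off. MDP0000688187 (1.62 ± 1.19) owed its place to C1, where it differed by 2.99, against 0.86 in C2 and 1.02 in C3. The next 9 lay between 1.46 and 1.40, that is MDP0000141458, MDP0000164386, MDE0200008436, MDP0000299658, MDP0000477771, MDP0000769492, MDP0000254554, MDP0000745805 and MDP0000139525. They were not alike: MDP0000164386 had its largest difference in C3 (1.96, against 1.65 in C1 and 0.75 in C2), MDE0200008436 its smallest there (0.34, against 2.32 and 1.66), and MDP0000141458 was the most even of the 9 with 1.86, 1.02 and 1.49.

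MDP0000769492 was among the brightest of these, at 10.04 in 2014-P24 and 8.83 in 2014-P36 against 12.09 in 2015-P24, 10.06 in 2015-P31 and 11.20 in 2017-P31b. Its single channels overlapped between the groups: 2014-P24 was level with 2015-P31, and the difference in C2 rested on the low value of 2014-P36. The transcript with the next identifier, MDP0000769493, singled out after its values were seen, had nearly the same profile at a lower level, with 8.52 and 7.96 against 10.43, 8.94 and 9.51, and differences of 2.01, 0.70 and 1.10 where MDP0000769492 had 2.05, 1.00 and 1.22. Whether their probes can bind each other's transcript was not tested. The channels of MDP0000745805 also overlapped, with 8.78 in 2014-P24 next to 8.87 in 2015-P31.

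**Figure D2:**
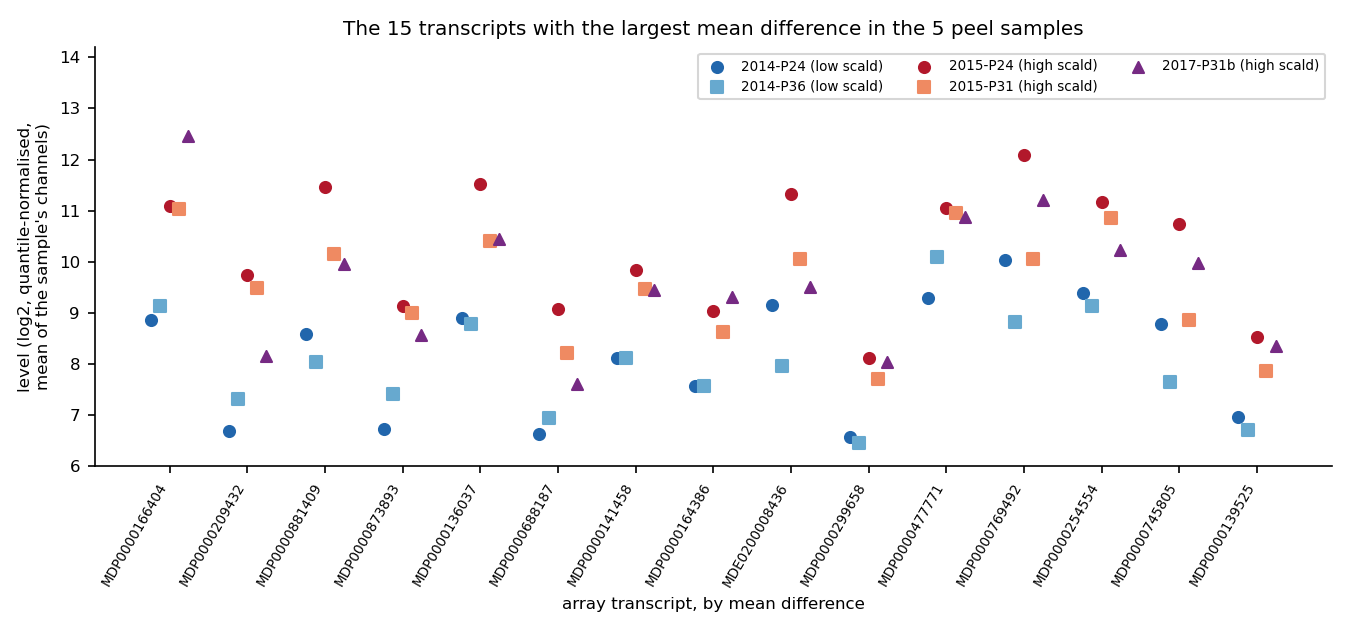
Level (log2, quantile-normalised, mean of the channels of each sample, y axis) of the 15 transcripts with the largest mean difference (x axis) in the 2 low scald samples (blue) and the 3 high scald samples (red, orange and purple). All high scald points lie above the low scald points for each, but by as little as 10.06 against 10.04 for MDP0000769492.

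At the other end, the 3 transcripts just inside the limit were MDP0000170129 (1.02), MDP0000809488 (1.01) and MDP0000933677 (1.00), and the 3 probes just outside it, otherwise meeting the rule, were MDP0000273394 (0.999), MDP0000120560 (0.997) and MDP0000200224 (0.995). MDP0000933677 differed by 0.88, 1.12 and 1.01 in the 3 comparisons and so was one of the steadiest between them. Its 2 arrays of C2 gave 0.74 and 1.51, however. A further 13 probes had a mean of 1 or more but fell below 0 on at least 1 array, the largest of them at 1.94.

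Among the 55, the evenness over comparisons varied widely. The SD of the 3 comparison values had a median of 0.63 (log2), from 0.066 for MDP0000187921 to 1.21 for MDP0000166404, against a median of 0.25 over the 12679 sense probes well above background in all 6 high scald channels. The 55 have large differences by choice, so these medians are not like for like. The 12679, called the brighter sense probes below, were filtered on the high scald channels only, and 47 of the 55 pass that filter. MDP0000187921 differed by 1.02, 1.15 and 1.08 in C1, C2 and C3, a mean of 1.08. Its 2 arrays of C2 gave 0.68 and 1.62, so it was even between comparison means and not between single arrays. Its levels were 8.43 and 9.14 in 2014-P24 and 2014-P36 against 9.34, 10.52 and 9.43 in 2015-P24, 2015-P31 and 2017-P31b. A difference of 1 or more in all 3 comparisons was reached by 9 of the 55, and one of 0.75 or more by 25. A difference of 0.5 or more on each of the 6 arrays was seen in 28, and 5 came within 0.1 of 0 on some array.

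The 3 comparisons did not contribute equally. C1 had a median difference of 1.84 over the 55 (range 0.73 to 3.39), C3 of 1.22 (0.05 to 3.94) and C2 of 0.86 (0.17 to 1.69). C1 was the largest of the 3 in 38 transcripts, C3 in 14 and C2 in 3, and C2 was below C1 in 51. These orders were not counted over all sense probes. Over the 12679 brighter sense probes the difference C2 minus C1 had a median of 0.07, against -1.01 over the 55. The 55 were chosen on the mean of these same comparisons, so nothing is read from that contrast. The order of C2 and C3 changed with the scale, however. The sense probes well above background had a median level of 8.50 in 2014-P36 and 2015-P31 but 9.73 to 10.34 in the other samples before quantile normalisation, and after it the medians of the 55 for C1 to C3 were 1.64, 1.21 and 1.13. C2 was then the smallest in 25 transcripts, where it had been in 35, and 14 rather than 9 differed by 1 or more in all 3 comparisons. With background-corrected scanner intensities the medians were 1.71, 0.88 and 1.19. The 36 transcripts above background in all 12 channels had nearly the same C2 median (0.90) as the other 19 (0.82).

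The exchange of dyes left a shift that was small at the median but large for some single transcripts. At the median over the 55, array a gave a smaller difference than array b by 0.09, 0.27 and 0.11 (log2) in C1 to C3, and C2b was the larger in 42 of the 55. Over the brighter sense probes the medians were 0.01, 0.18 and 0.09 in the same direction. In C2, array a minus array b ran from -1.13 to 0.61 over the 55. Over the brighter sense probes its SD was 0.79 in C2, against 0.27 in C1 and 0.31 in C3. The widest gap within a pair over the 55 was that of MDP0000166404 in C3.

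The high scald peel of C1 and that of C3 differed from each other in some of the 55. They came from different harvest years and also from different plots, so year and plot cannot be told apart in these gaps. C1 and C3 share 2014-P24, so the values are given side by side. C3 was above C1 in 17 of the 55, against 45.2% of all sense probes, and the difference C3 minus C1 had a median of -0.60 with a range of -2.35 to 1.79. In 21 the values lay within 0.5 of each other. In 16, C1 exceeded C3 by 1 or more, and in 5, C3 exceeded C1 by as much. Gaps of 1 or more in either direction were seen in 1.29% of all sense probes. The 55 were chosen on these comparisons, so such shares are background only. With 1 pool of peel for each side, these gaps had no replicate beyond the exchange of dyes and were not tested. Quantile-normalised 2014-P24 levels differed between the arrays of C1 and C3 by a median of 0.06 over the 55.

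In 7 transcripts, chosen for description after their values were seen, C3 was below 0.5. They were MDE0200008436, MDE0400000732, MDP0000474471, MDP0000924563, MDP0000354233, MDP0000481385 and MDP0000547295. C1 was 2.04 to 2.42 in all 7 and C2 was 0.80 to 1.66, whereas C3 was 0.05 to 0.34. These 7 thus differed between 2014 and 2015 peel and hardly between 2014-P24 and 2017-P31b. Most were dim in that pair, with a median level over the 7 of 6.52 in 2014-P24 and 6.63 in 2017-P31b (log2, quantile-normalised). MDE0200008436 was brighter, at 9.15 and 9.51. MDP0000481385 was well above background in only 1 of 6 low scald and 4 of 6 high scald channels. How far dim signal shaped these small C3 values was not tested. Over all sense probes C3 had an upper quartile of 0.07. MDP0000354233 had 6.52 in 2014-P24 and 7.27 in 2014-P36 against 8.46 in 2015-P24, 8.49 in 2015-P31 and 6.63 in 2017-P31b. For this transcript, the high scald sample of 2017 lay with the low scald sample 2014-P24 and below 2014-P36. In 6 of the 7 the level in 2014-P36 was above that in 2017-P31b, the exception being MDE0200008436 with 7.97 and 9.51. MDP0000547295 differed by only 0.097 and 0.0019 on the 2 arrays of C3. With background-corrected scanner intensities, 46 of the 55 still met the rule (0.0762% of all sense probes did), 51 of the 55 stayed above 0 on all 6 arrays, and MDP0000547295, MDP0000354233, MDE0400000732 and MDP0000126347 did not.

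In 5 transcripts the order was the opposite, with C3 above C1 by 1 or more. Besides MDP0000166404, these were MDP0000891556 (0.95, 0.56 and 2.08 in C1 to C3), MDP0000816018 (0.96, 0.40 and 2.09), MDP0000866265 (0.79, 0.70 and 1.84) and MDP0000126347 (0.73, 0.17 and 2.40). They too were named after their values were seen. MDP0000126347 was dim in 4 of the 5 samples, at 6.28 in 2014-P24, 6.57 in 2014-P36, 6.85 in 2015-P24 and 6.84 in 2015-P31, and stood at 8.46 in 2017-P31b. MDP0000816018 was bright throughout, at 9.96, 10.77, 10.89 and 11.27 in the same samples and 11.98 in 2017-P31b. Without MDP0000166404, the 4 others had their C2 and C1 values below 1.

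**Figure D3:**
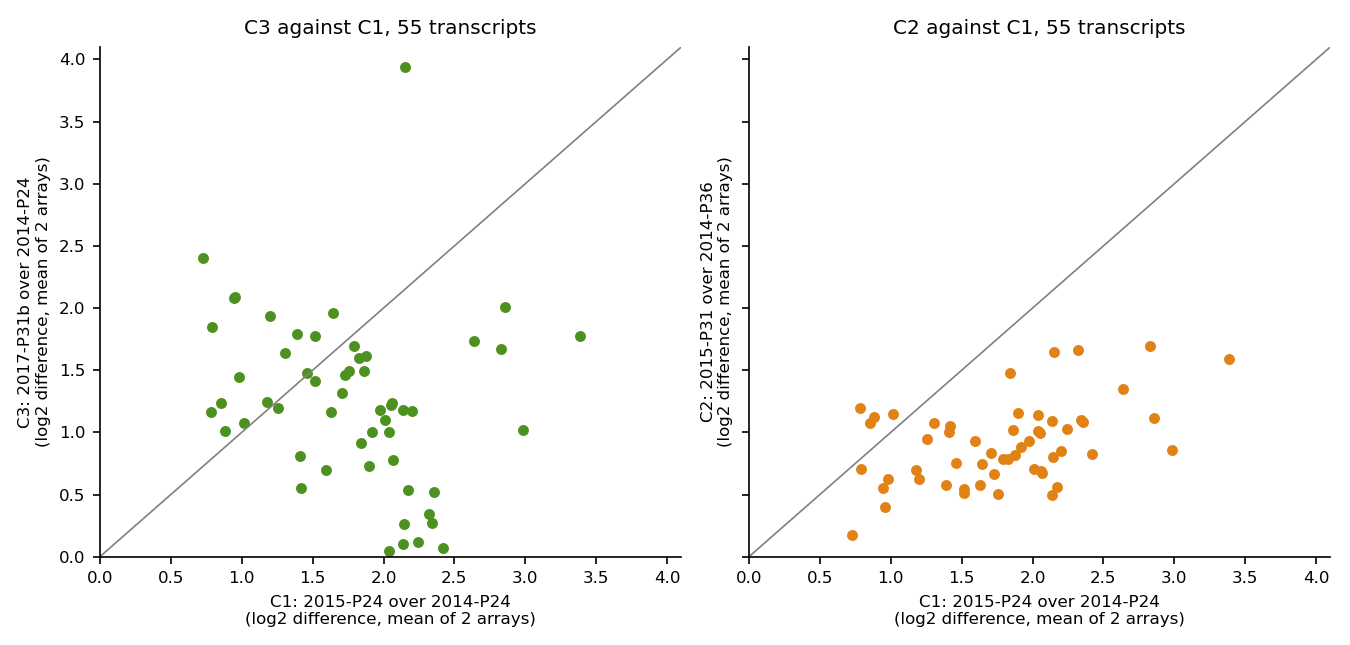
Difference of each of the 55 transcripts in C3 (left) and C2 (right) against that in C1 (log2, mean of 2 arrays, grey line at equality). In the left panel 17 points lie above the line and a group of 7 lies along the bottom with C1 above 2 and C3 below 0.5, and in the right panel 51 points lie below the line.

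Because the rule compares channels of the same array, it did not require each high scald sample to exceed both low scald samples. On the quantile-normalised scale, all 3 high scald samples were above both low scald samples in 45 of the 55, against 5.59% of all sense probes. The exceptions numbered 10. In 9 of them 2014-P36 was above 2017-P31b, and in the last, MDP0000238081, 2014-P36 (10.64) was above 2015-P24 (10.59). Over single channels, the lowest of the 6 high scald channels exceeded the highest of the 6 low scald channels in 36 of the 55 after quantile normalisation (0.495% of all sense probes) and in 5 on the deposited scale (0.0224%), where the arrays differed in brightness. The same contrast chose the transcripts, and nothing is read from these counts.

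The median level of the 55 was 8.43 in 2014-P24 and 8.03 in 2014-P36 against 9.90 in 2015-P24, 9.47 in 2015-P31 and 9.51 in 2017-P31b. Over the brighter sense probes, filtered on the high scald channels only, the 5 medians were all between 9.46 and 9.54. Of the high scald samples, 2015-P24 was the highest in 26 transcripts, 2017-P31b in 15 and 2015-P31 in 14. Of the low scald samples, 2014-P36 was the higher in 33 and 2014-P24 in 22, and the difference 2014-P36 minus 2014-P24 ran from -1.35 to 1.35, as wide as many of the scald differences. Fewer cells of a kind in the peel and less RNA in each cell cannot be told apart in such pooled tissue.

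The array also carries a probe for the antisense strand of most transcripts, which the rule did not use. An antisense probe was present for 54 of the 55, with 1 or 2 spots each. Its difference between high and low scald peel had a median of 0.10 (range -0.16 to 0.95), compared with 0.0024 over all antisense probes. It was above 0 on all 6 arrays in 11 of the 54, against 1.65% of all antisense probes, and its mean reached 1 in none. The antisense probes were dim, with a median level of 5.64 against 5.47 over all antisense probes and 8.99 for the sense probes of the 55. None was well above background in all 12 channels, 30 were so in no channel and 24 in 1 to 11 of them. No share over all antisense probes is given here for these counts, so nothing is read from them. Among the 15 leading transcripts the largest antisense differences were those of MDP0000769492 (0.49, level 6.01) and MDP0000254554 (0.49, level 6.37), while MDP0000166404 had 0.35 at a level of 5.58 in no channel well above background. No antisense probe was brighter than its sense probe. Since both strands were measured with the same peel on the same arrays, the antisense values are no independent replicate.

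**Figure D4:**
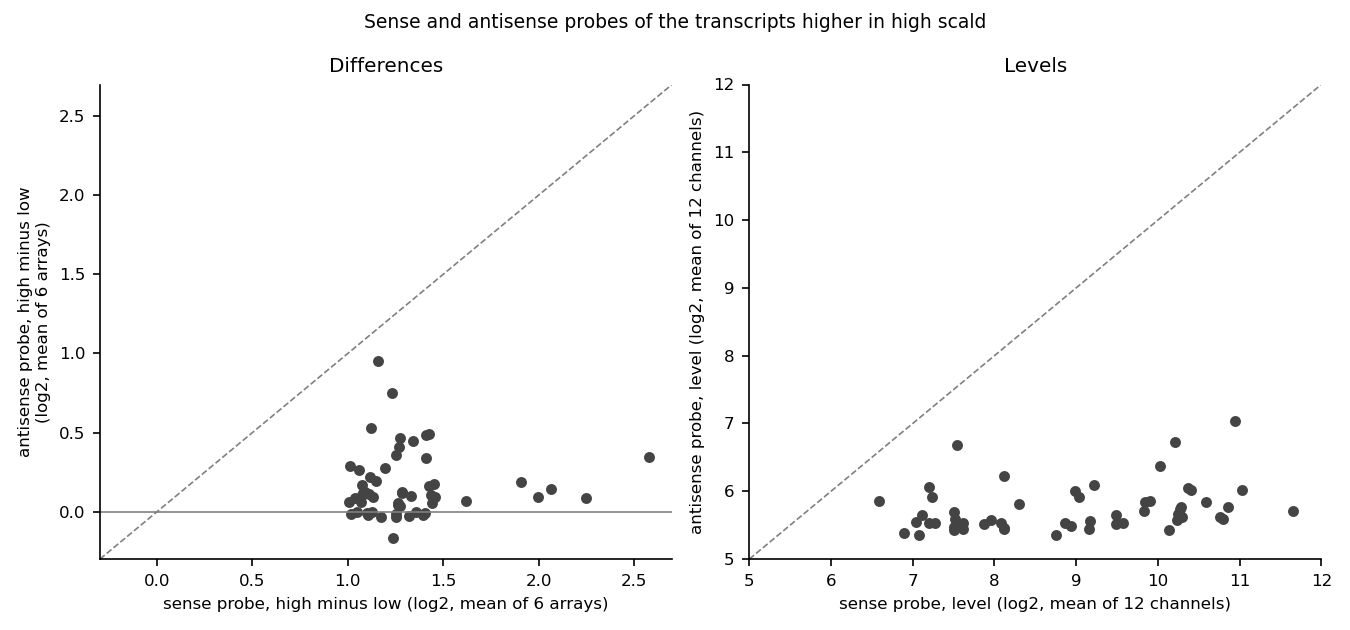
Antisense against sense probe of the 54 transcripts with both: the left panel plots the high minus low scald difference (log2, mean of 6 arrays) and the right panel the level (log2, mean of 12 channels), dashed lines at equality. Every point lies below equality in both panels, and the antisense differences reach 0.95 at most, with a median of 0.10.

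The surroundings of the spots gave values close to 0. The spots around each of the 55 had a median difference of -0.040 to 0.042 (log2), and the local background of the spots themselves differed between high and low scald channels by -0.059 to 0.045.

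Over all 133709 probes, limma fitted on the 3 comparison ratios called 0 probes higher in high scald peel after Benjamini-Hochberg adjustment and 1 lower (0.000748%), with 3332 (2.49%) higher at an unadjusted p under 0.05. Its p-values are not given for the 55, which were chosen on the same ratios. When the 6 arrays were entered as separate ratios, which counts the dye exchange as replication, limma called 129 probes higher and 300 lower. The study reports many transcripts called in both directions from its own combined analysis of these comparisons with the same adjustment, more of them lower. The fit on 3 ratios thus disagrees with the study's count, and why was not tested. Its 0 does not mean that no transcript is higher.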

How the data were processed

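Peel RNA of 5 pooled samples was hybridised on 6 Agilent AryANE_v2 arrays (12 channels). The deposited series values are log2 intensities that the authors normalised by lowess from median spot signals without background subtraction. The deposited scanner intensity of each channel served for detection, flags and as an alternative (normexp with an offset of 50, then loess). Channel medians of the log2 values were 5.45 to 5.63. For probes with 2 spots the series values followed the first spot; all sense probes have 1. Differences were taken within arrays, averaged per comparison, then over comparisons. limma 3.58.1 (R 4.3.3) used the 3 comparison ratios. It had been checked on simulated data, where recovery of the changes was required only at a spread well below that of these data. How many changes it would call at their own spread is not given here. Named transcripts were the 15 with the largest mean, the 3 on either side of the limit, and the most and least even; others are marked as chosen afterwards. The members and lists were chosen with earlier results of these data known. Arrays give no counting depth; 3 comparisons limit the precision. The p-values measure only the spread between these pools.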

Additional observations from a re-analysis of the deposited data

How the results depend on the processing

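The number of sense probes meeting the rule, 55, was 47 to 61 with other background corrections, scalings, flag filters, detection filters and the median in place of the mean. It was 114 with a mean of 0.8 or more, and 6 with 1.5 or more. Leaving out 1 comparison gave 37 (without C1) to 174 (without C2), and 97 without C3, of which 33, 52 and 45 were among the 55. The median difference of the 55 was 1.07 to 1.47 in all alternatives. The means of the 19 transcripts named by their rank or evenness were 0.80 to 3.05, their sign being fixed by the rule. That range does not cover the others, named after their values were seen, such as MDP0000354233 with 0.82 in C2 and 0.07 in C3. The limma count of 0 became 129 with 6 separate arrays, where dye exchanges count as replicates. It was 0 on scanner intensities and with fewer comparisons, fits with no more replication, which says nothing about stability. Scaling changed the order of comparisons, an alternative chosen after seeing the data: quantile normalisation took transcripts with C2 smallest from 35 to 25, and those at 1 or more in all 3 comparisons from 9 to 14. No paired analysis was possible because the replicate letters mark technical channels of the same pools, and the pairing by array is already part of every ratio. Signal over background limits the 19 dimmer transcripts. Each array of C2 has a Cy5 channel with few probes well above background (10.9% for 2015-P31 and 13.2% for 2014-P36). Whether this shaped the differences in C2 was not tested. Among the 4 channels of 2014-P24, none lay apart from the others by Dixon's criterion in any of the 19 named transcripts, which leaves out the scanner's own spot flags given above. With only 4 values the criterion can miss a stray channel, so it does not show that there was none.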
